A study of Mus musculus with 30 samples.

Results

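Hmga2, Hmga1, Igf2bp2 and Igf2bp3 are growth genes of the embryo that are mostly less active in adult tissue. These 4 genes were chosen from the measured values themselves, because Hmga2 was higher in astrocytes after stroke and not after lipopolysaccharide, so the Hmga2 differences below are a description and carry no test. Probe sets with a single gene symbol were taken, which gave 4 probe sets of Hmga2 and 6 of Igf2bp3 among 45037 probe sets and 18193 genes. No probe set carried the symbol Hmga1 or Igf2bp2, alone or beside another, in the annotation used here, and both genes were not analysed here.

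The cells were astrocytes sorted by fluorescence from dissociated brains of young adult male mice, Tg(Aldh1l1-eGFP) OFC789Gsat on a Swiss Webster background. In this line the Aldh1l1 gene's control region drives green fluorescent protein in astrocytes, and every group carries it. Mice with middle cerebral artery occlusion (MCAO, occluded for 1 hour and then reperfused) were sampled after 1 day (5 arrays), 3 days (3 arrays) and 7 days (3 arrays), against sham surgery after 1 day (4 arrays), 3 days (3 arrays) and 7 days (3 arrays). Mice given lipopolysaccharide (LPS, a bacterial cell wall component that causes systemic inflammation) into the peritoneum at 5 mg/kg were sampled after 1 day (5 arrays), against saline after 1 day (4 arrays). Some 20 ng of total RNA was amplified over 2 cycles for each sample, labelled with biotin and hybridised to an Affymetrix mouse array.

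HMGA proteins bind the minor groove of AT-rich DNA through short AT-hook segments and change how chromatin bends and opens. Hmga2 is abundant in the embryo, including neural stem cells, and declines with age. The let-7 microRNAs pair with the Hmga2 messenger RNA and repress it, and the RNA-binding proteins LIN28A and LIN28B block the maturation of let-7. IGF2BP proteins bind messenger RNAs, among them those of Igf2, Myc, Cd44 and Actb, and affect their stability, location and translation; Igf2bp genes are let-7 targets as well, and in mouse neural precursors Hmga2 has been reported to act upstream of Igf2bp2.

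The let-7 microRNAs are shown because their shared seed, bases 2 to 8 in capitals, is the stretch through which they recognise the messenger RNAs of Hmga2 and Igf2bp genes. Of 1738 mature mouse microRNA entries of RefSeq, those with this seed carried 11 names, and 3 are printed here. No microRNA level was analysed here.
let-7a-5p: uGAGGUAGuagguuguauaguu
let-7b-5p: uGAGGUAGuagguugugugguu
let-7i-5p: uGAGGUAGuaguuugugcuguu

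The promoter windows of both measured genes, from 250 bases before to 50 bases after the RefSeq start, are printed to set the gene that differed after stroke beside the one that did not. Both lie on the minus strand of GRCm38.p6, Hmga2 at chr10:120476420-120476719 and Igf2bp3 at chr6:49214905-49215204. Capitals mark runs of at least 12 pyrimidines (C or T).
Hmga2: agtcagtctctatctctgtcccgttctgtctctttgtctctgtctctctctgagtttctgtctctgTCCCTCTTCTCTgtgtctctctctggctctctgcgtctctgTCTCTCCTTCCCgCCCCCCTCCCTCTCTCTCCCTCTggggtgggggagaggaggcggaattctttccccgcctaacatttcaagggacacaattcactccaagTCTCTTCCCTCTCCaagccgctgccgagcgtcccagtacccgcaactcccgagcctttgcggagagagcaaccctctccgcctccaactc
Igf2bp3: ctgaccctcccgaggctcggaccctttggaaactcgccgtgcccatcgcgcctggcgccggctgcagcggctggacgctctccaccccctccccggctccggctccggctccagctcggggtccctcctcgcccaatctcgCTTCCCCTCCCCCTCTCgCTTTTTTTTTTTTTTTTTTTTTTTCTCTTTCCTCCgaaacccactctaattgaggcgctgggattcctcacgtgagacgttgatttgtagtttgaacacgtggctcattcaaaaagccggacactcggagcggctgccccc

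The Hmga2 window was 69.0% pyrimidine and held 4 such runs, the longest of 23 bases. The Igf2bp3 window was 65.0% pyrimidine with 2 runs, the longest of 35 bases. Among 32544 promoter windows of the table the median pyrimidine share was 49.7%, and 2.05% of windows held a run of 23 bases or more. The Hmga2 window had 1 match to the GC box GGGCGG, searched on both strands, with its first base at position -133, where 2 of the marked runs meet; 35.9% of all windows hold this motif. The Igf2bp3 window had 2 matches to the E-box CACGTG, at positions -23 and 6, a motif in 7.17% of all windows. Neither window held the AP-1 motif TGANTCA (7.79% of windows), the STAT motif TTCNNNGAA (8.33%), the cyclic AMP response motif TGACGTCA (1.8%) or TATAAA (13.6%). These matches describe letters within 300 bases and no binding.

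Values are RMA intensities on a linear scale, and differences are on the log2 scale. Across all arrays 28.2% of values lay under 32 (log2 5), the level used here as the lower limit for testing and drawn as near background. Of the Hmga2 probe sets 3 passed that limit on at least 3 arrays and 1 did not, and of the Igf2bp3 probe sets 4 passed and 2 did not. Hmga2 1450781_at was at or above the limit on 8 arrays, which were the 5 MCAO arrays of 1 day, 2 MCAO arrays of 3 days and 1 LPS array, so passing the limit and differing are nearly the same for it.

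Some arrays stood apart from their group before any member was considered. MCAO array 3 of 3 days correlated with MCAO arrays 1 and 2 at 0.936 and 0.938 over all probe sets, but with sham array 3 of that day at 0.979. That sham array had Lcn2, a reactive astrocyte gene, at 832 against 33 and 31 on the other sham arrays of 3 days, and Vim, an intermediate filament gene of reactive astrocytes, at 13373 against 1443 and 1515. LPS array 5 had the lowest level of Aldh1l1, the gene that marks the sorted cells, at 2244, and its median intensity was 94 where all other arrays lay between 68 and 73. Aldh1l1 was between 5020 and 13379 on the other 29 arrays, and the 10 astrocyte markers passed the lower limit for testing. Results of 3 days are therefore given with and without array 3 of both groups; leaving it out was decided after seeing the data.

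After 1 day of MCAO, Hmga2 was far above sham on all 5 arrays. Its leading probe set 1422851_at read 1225, 379, 596, 529 and 414 on the MCAO arrays, against 31, 32, 28 and 33 on the sham arrays. Every MCAO array was more than 10 times above every sham array, and the sham arrays lay near background. The log2 difference was 4.21 ± 0.42 (SE; 5 against 4 arrays), an 18.4-fold difference, and it was the 27th largest of 35730 probe sets. Because the sham level is near background, the size of this fold is not exact. In bulk samples, fewer cells of a type and less RNA per cell cannot be told apart.

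The other probe sets built on the same source sequence showed the same separation. Hmga2 1450781_at read 672, 225, 380, 259 and 216 on the MCAO arrays, against 26, 23, 27 and 23 on the sham arrays, a log2 difference of 3.68 ± 0.40. Hmga2 1450780_s_at read 403, 176, 228, 200 and 170 on the MCAO arrays, against 30, 26, 28 and 29 on the sham arrays, a difference of 2.98 ± 0.35. MCAO array 1 was the highest in all 3 probe sets, which correlated at 0.98 to 0.99 over the 30 arrays and share their libraries. Their log2 differences ranged from 2.98 to 4.21.

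The fourth probe set, 1446196_at, comes from another source sequence and stayed between 15 and 23 on all 30 arrays. It read 23, 19, 18, 18 and 21 on the MCAO arrays of 1 day, against 19, 17, 17 and 15 on the sham arrays, all below the lower limit for testing. Its difference was 0.22 ± 0.10, with overlapping arrays, and it correlated with the other 3 at 0.42 to 0.44. The statement that Hmga2 was higher after stroke therefore rests on probe sets of 1 source sequence. A near copy of the gene, the pseudogene Hmga2-ps1, has its own probe set 1440559_at, which lay between 20 and 39 on all arrays and differed at 1 day by -0.04 ± 0.14 (limma adjusted p = 0.962).

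**Figure D1:**
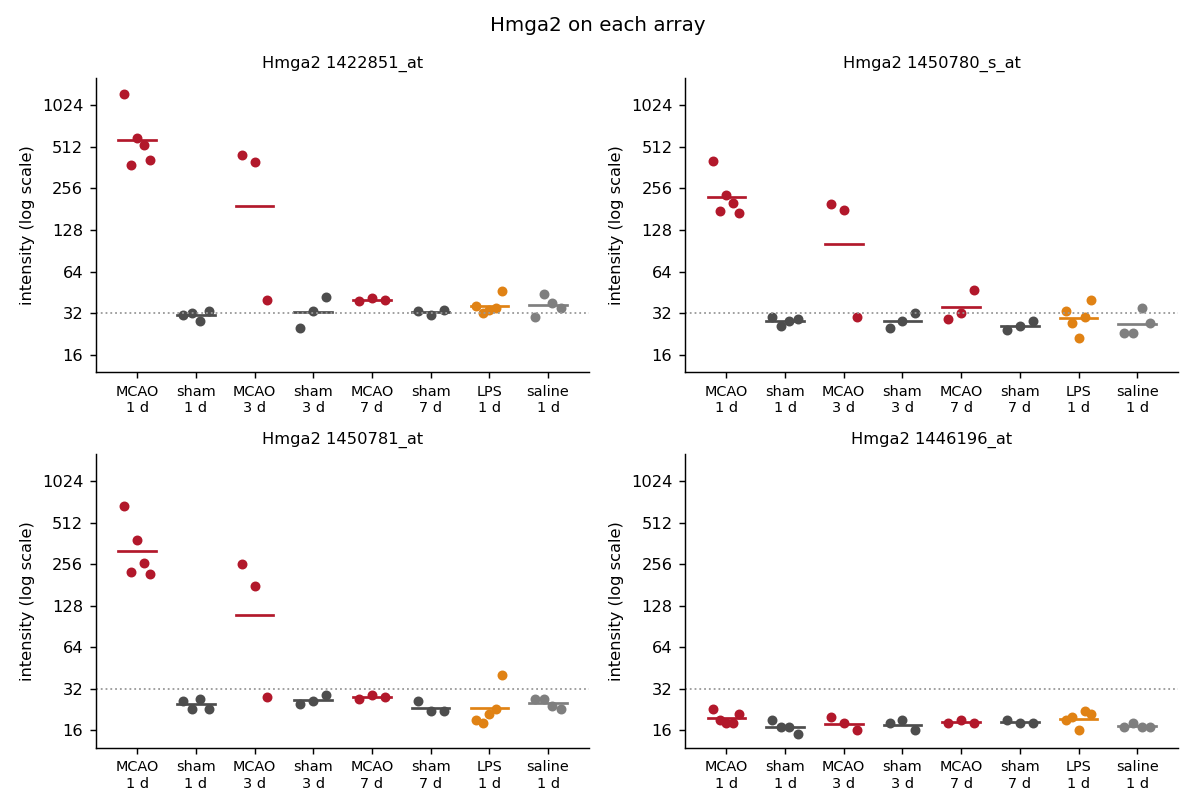
Intensity of the 4 Hmga2 probe sets on each array (log scale), with 1 point per array, a bar at the group mean of the log2 values and a dotted line at 32, the lower limit for testing. The 5 MCAO arrays of 1 day and 2 of the 3 MCAO arrays of 3 days lie far above the rest in 3 probe sets, and 1446196_at lies below the line on every array.

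After 3 days of MCAO, Hmga2 was far above sham on 2 of 3 arrays and at the sham level on the other. The leading probe set read 445, 396 and 40 on MCAO arrays, against 25, 33 and 42 on sham arrays. Arrays 1 and 2 lay in the lower part of the range of the MCAO arrays of 1 day, under its median of 529, while array 3, the one that resembled sham array 3 over all probe sets, was below the highest sham array. The log2 difference was 2.56 ± 0.52 with all arrays, 3.69 without MCAO array 3 and 3.87 without array 3 of both groups. In fold terms the difference with all arrays was 5.88.

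The same split appeared in the companion probe sets. Hmga2 1450781_at read 257, 179 and 28 on the MCAO arrays, against 25, 26 and 29 on the sham arrays, and 1450780_s_at read 197, 179 and 30 on the MCAO arrays, against 25, 28 and 32 on the sham arrays. In 1450781_at MCAO array 2 was below every MCAO array of 1 day. Their log2 differences were 2.03 ± 0.48 and 1.85 ± 0.43 with all arrays, and 3.07 and 2.83 without array 3 of both groups. MCAO array 3 was not free of reactive genes, and neither was sham array 3. Vim was 12251 on MCAO array 3 and 13373 on sham array 3, against 13352 and 17951 on the other MCAO arrays. In the same order Lcn2 was 1283 and 832, against 2144 and 5262. Of the other reactive genes read, Gfap was 6754 and 6036, against 11662 and 13458, and Serpina3n 2356 and 2549, against 6224 and 7732. On sham arrays 1 and 2 Gfap was 2176 and 1828, and Serpina3n 1188 and 832.

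By 7 days Hmga2 was back near background. The leading probe set read 39, 41 and 40 on MCAO arrays, against 33, 31 and 34 on sham arrays, a log2 difference of 0.29 ± 0.52. The MCAO arrays were all above the sham arrays, also in 1450781_at, with 27, 29 and 28 against 26, 22 and 22, and in 1450780_s_at, with 29, 32 and 47 against 24, 26 and 28. These gaps are small and lie near the lower limit for testing, with values from 22 to 47. The probe sets share a source sequence and are not separate observations. How many of all probe sets separate in this way was not counted here, so the separation may be ordinary on that day. On the same day the summed levels of 11 of 18 gene lists examined here also separated in that direction, for example the astrocyte markers at 96367 to 103659 on MCAO arrays against 87636 to 94874 on sham arrays, and the part of this in the Hmga2 gap was not tested.

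After LPS, Hmga2 did not separate from saline. The leading probe set read 36, 32, 34, 35 and 46 on LPS arrays, against 30, 44, 38 and 35 on saline arrays, a log2 difference of 0.00 ± 0.42. The highest value was on LPS array 5, the array of low Aldh1l1, and leaving out any 1 array kept the difference between -0.10 and 0.09. Hmga2 1450781_at read 19, 18, 21, 23 and 40 on LPS arrays, against 27, 27, 24 and 23 on saline arrays. For Hmga2 1450780_s_at the values were 33, 27, 21, 30 and 40 on LPS arrays, against 23, 23, 35 and 27 on saline arrays. The groups overlapped in both probe sets.

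Set side by side, the MCAO effect at 1 day exceeded the LPS effect by 4.21 ± 0.60 on the log2 scale for the leading probe set, the 6th largest such difference among 35730. The effect at 3 days minus that at 1 day was -1.65 ± 0.67 with all arrays. It was -0.52 without MCAO array 3 alone and -0.34 without array 3 of both 3-day groups. Most of the apparent decline in this probe set thus rests on MCAO array 3. Without that pair of arrays 1450781_at differed by 3.07 at 3 days, against 3.68 at 1 day. For 1450780_s_at these values were 2.83 and 2.98. The effect at 7 days minus that at 1 day was -3.91 ± 0.67, and at 7 days minus 3 days it was -2.26 ± 0.73, or -3.58 without the same pair. In order of mean log2 level the groups ran MCAO at 1 day (9.16), MCAO at 3 days (7.58), MCAO at 7 days (5.32), saline (5.19), LPS (5.18), sham at 3 days (5.03), sham at 7 days (5.03) and sham at 1 day (4.95). Neighbours in that order overlapped in their arrays throughout.

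Over all probe sets, the background of calls at an adjusted p under 0.05 was 9.5% after 1 day of MCAO, 0.378% after 3 days, 0.0112% after 7 days and 2.28% for LPS. For the differences between effects it was 0.954% for MCAO minus LPS, 0.014% for 3 days minus 1 day, 0.311% for 7 days minus 1 day and 0% for 7 days minus 3 days, where 834 probe sets had an unadjusted p under 0.05 in limma. The fit behind these shares did not pair arrays. At 3 days its 135 probe sets called became 6 with a block on the numbers in the titles and 1442 with a block on those in the descriptions. Both sources pair the 3-day arrays in the same way and number the arrays of the 1-day groups differently.

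**Figure D2:**
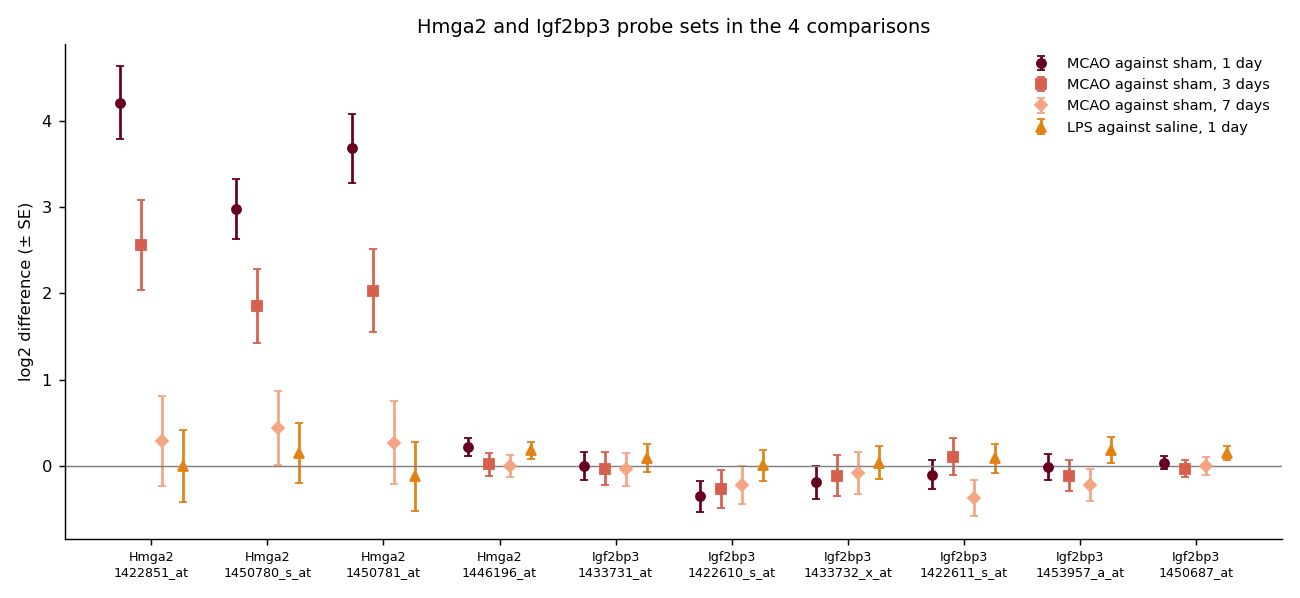
Log2 difference (± SE) of the 4 Hmga2 and 6 Igf2bp3 probe sets for the MCAO groups against sham of their day and for LPS against saline. For 3 Hmga2 probe sets the 1-day MCAO differences lie at 2.98 to 4.21 and those of 3 days at 1.85 to 2.56, while all tested Igf2bp3 differences lie between -0.37 and 0.11.

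Hmga2 was compared with genes of astrocyte reactivity and of cell division array by array. Lcn2 read 12491, 10993, 8690, 13860 and 11792 on MCAO arrays of 1 day, against 34, 30, 188 and 33 on sham arrays. After LPS it read 20232, 18480, 21050, 13294 and 14611, against 31, 61, 97 and 31 after saline. Hmga2 was near background, at 32 to 46, on LPS arrays on which Lcn2 was as high as after stroke or higher. Vim was between 2313 and 10759 on the LPS arrays, and sham array 3 of 3 days combined a Vim of 13373 with an Hmga2 of 42. The part of astrocyte reactivity in the Hmga2 difference was not tested.

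Division genes followed another course. The summed intensity of 11 measured genes of the cell cycle list was 544, 481, 497, 823 and 514 on MCAO arrays of 1 day, against 528, 636, 713 and 529 on sham arrays, and the groups overlapped. No gene of that list was called at 1 day, where 11.8% of all genes by their leading probe set were, and the list's median log2 difference was -0.09 against -0.04 over all genes. At 3 days the sum was 8239, 6110 and 3453 on MCAO arrays, against 770, 1159 and 4199 on sham arrays. At 7 days it was 3603, 2327 and 1850 on MCAO arrays, against 1546, 752 and 1239 on sham arrays, with Hmga2 at 39 to 41 on the MCAO arrays. The part of cell division in the Hmga2 difference was not tested.

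At 3 days 2 of 11 cell cycle genes were called, where 0.509% of all genes were. Ube2c, a ubiquitin-conjugating enzyme of mitotic exit, rose by log2 2.01 ± 0.45 (limma adjusted p = 0.0434) and Birc5, the survivin gene, by 1.72 ± 0.40 (adjusted p = 0.0498). With the title numbers as a block their adjusted p were 0.0955 and 0.132, while with the description numbers Birc5 was at 0.0662 and Ube2c stayed called. Both calls were lost in 4 of 6 fits that left out 1 array (adjusted p up to 0.391), with no filter (0.0563 and 0.0661) and with the compared groups alone (0.422 and 0.44). Without array 3 of both groups all 11 tested genes of the list rose, where 3.55% of all genes were called, Ube2c by 2.89 (adjusted p = 0.000187) and Birc5 by 2.72 (3.18e-05). The list's median was 1.83 with all arrays and 2.84 without array 3, against -0.02 over all genes with all arrays. On MCAO arrays 1 and 2 of 3 days high Hmga2 stood beside high division genes, which it did not after 1 day. Markers of the oligodendrocyte lineage were also higher on these arrays than on sham arrays 1 and 2, and highest on sham array 3. Precursor markers summed to 6974, 6619 and 9149 on MCAO arrays of 3 days, against 2691, 3262 and 13107 on sham arrays, and oligodendrocyte markers to 22131, 16615 and 19497 on MCAO arrays, against 11986, 10260 and 24520 on sham arrays. Without array 3 of both groups 2 of 8 precursor markers (Pdgfra and Lhfpl3) and 1 of 7 oligodendrocyte markers (Mag) rose, with list medians of 1.13 and 2.54, and their part in these results was not tested.

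**Figure D3:**
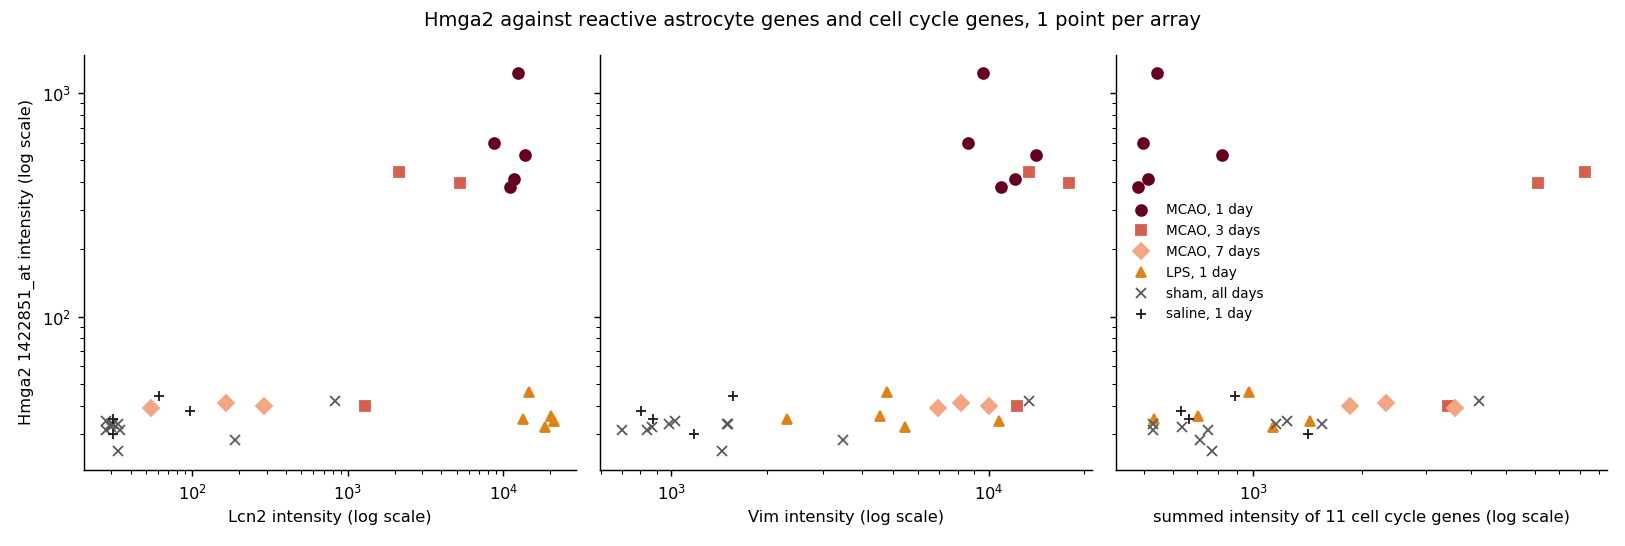
Intensity of Hmga2 1422851_at (log scale, vertical) against Lcn2, Vim and the summed intensity of 11 cell cycle genes (log scales, horizontal), with 1 point per array. The 5 LPS arrays reach 21050 for Lcn2 with Hmga2 between 32 and 46, and the 5 MCAO arrays of 1 day hold Hmga2 of 379 or more with cell cycle sums of 481 to 823.

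Markers of other cells that the sort could hold were set beside Hmga2. The 6 measured neutrophil and monocyte markers summed to 417 to 468 on MCAO arrays of 1 day, against 330 to 370 on sham arrays. The decoy receptor gene Il1r2, 1 of the 6, rose (log2 0.87, limma adjusted p = 0.000946), where 11.8% of all genes were called at 1 day. S100a8 and S100a9, which define neutrophils, had mean log2 levels of 5.54 and 5.30 after MCAO, against 4.67 and 5.06 after sham, near the lower limit. The 7 measured neural progenitor markers summed to 8168 to 11045 on the MCAO arrays, against 12129 to 16351 on the sham arrays. Among them Nes, the nestin gene, which reactive astrocytes also use, rose (log2 1.96) and Prom1 fell by 1.26.

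Neuron and endothelial markers were high on 1 array of each group, MCAO array 4 and sham array 3, which share the number 4 in their descriptions. Deviations of these arrays correlated at 0.45 over probe sets, against 0.25, 0.08 and 0.15 for the other pairs by that number. Neuron markers summed to 7961 on MCAO array 4 and 2250 to 2974 on the other MCAO arrays of 1 day, against 10778 on sham array 3 and 2607 to 3207 on the other sham arrays. Endothelial markers summed to 7726 on MCAO array 4 and 7195 on sham array 3. Hmga2 was 529 on that MCAO array and 28 on that sham array, each close to the other arrays of its group. At 3 days the endothelial sum was 584 to 828 on MCAO arrays, against 451 to 552 on sham arrays, and 1 microglia marker, Cd68, rose at 1 day (log2 1.98, adjusted p = 1.15e-05). At 1 day of MCAO the sums of the oligodendrocyte precursor, oligodendrocyte, fibroblast and pericyte lists overlapped between the groups. Of single markers on that day, 1 of 7 endothelial and 1 of 7 pericyte and smooth muscle markers rose. On the same day 1 of 7 oligodendrocyte and 1 of 8 fibroblast markers fell, where 11.8% of all genes were called. At 3 days fibroblast markers summed to 2595, 6202 and 7743 on MCAO arrays, against 2889, 2476 and 10792 on sham arrays, and pericyte and smooth muscle markers to 3142, 6011 and 6699 on MCAO arrays, against 4177, 3855 and 5859 on sham arrays. Without array 3 of both groups Rgs5 and Tagln of the pericyte and smooth muscle list rose at 3 days, where 3.55% of all genes were called. Cd68, Nes and the fibroblast list's Pdgfra rose there as well. The part of infiltrating, progenitor or other cells in the Hmga2 difference was not tested.

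The genes whose pattern over the 30 arrays was most like that of Hmga2, among 15725 genes, were Clcf1 (r = 0.97), Tmem74 (0.96), Fosl1 (0.96), Ereg (0.95) and Calhm5 (0.95). Over the 8 group means r was 0.98 to 0.99 for each. Arrays share libraries and normalisation, and the groups fall into separate clusters, so r is given as a description. These genes were picked by r over the same 30 arrays, so a pattern they share with Hmga2 follows from the choice. Clcf1 encodes a cytokine of the interleukin-6 family, Fosl1 a FOS-related subunit of AP-1, Ereg a ligand of the epidermal growth factor receptor, Calhm5 a calcium homeostasis modulator and Tmem74 a transmembrane protein.

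In each of the 5 genes MCAO array 3 was the lowest MCAO array of 3 days, as in Hmga2, which they were picked to resemble. Clcf1 read 884, 575, 496, 435 and 436 on MCAO arrays of 1 day, against 24, 28, 39 and 28 on sham arrays, and 427, 612 and 61 on MCAO arrays of 3 days, against 30, 31 and 77 on sham arrays. Fosl1 read 760, 404, 532, 390 and 506 on MCAO arrays of 1 day, against 48, 45, 66 and 51 on sham arrays. At 3 days Fosl1 read 246, 530 and 107 on MCAO arrays, against 55, 44 and 67 on sham arrays, so its array 3 stayed above sham while that of Clcf1 did not. Tmem74 read 864, 300, 426, 467 and 293 on MCAO arrays of 1 day, against 40, 37, 79 and 44 on sham arrays, with MCAO array 1 highest as for Hmga2.

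Ereg and Calhm5 were close to background outside stroke. Ereg read 93, 87, 50, 104 and 76 on MCAO arrays of 1 day, against 19, 17, 17 and 17 on sham arrays, and Calhm5 read 160, 111, 166, 120 and 83 on MCAO arrays, against 23, 22, 26 and 24 on sham arrays. None of the 5 separated LPS from saline, which their choice by likeness to Hmga2 makes likely in advance. Clcf1, for example, read 80, 38, 35, 33 and 82 on LPS arrays, against 28, 42, 60 and 34 on saline arrays. The 300-base promoter window of Calhm5 held no AP-1, STAT or GC box match and 1 E-box.

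**Figure D4:**
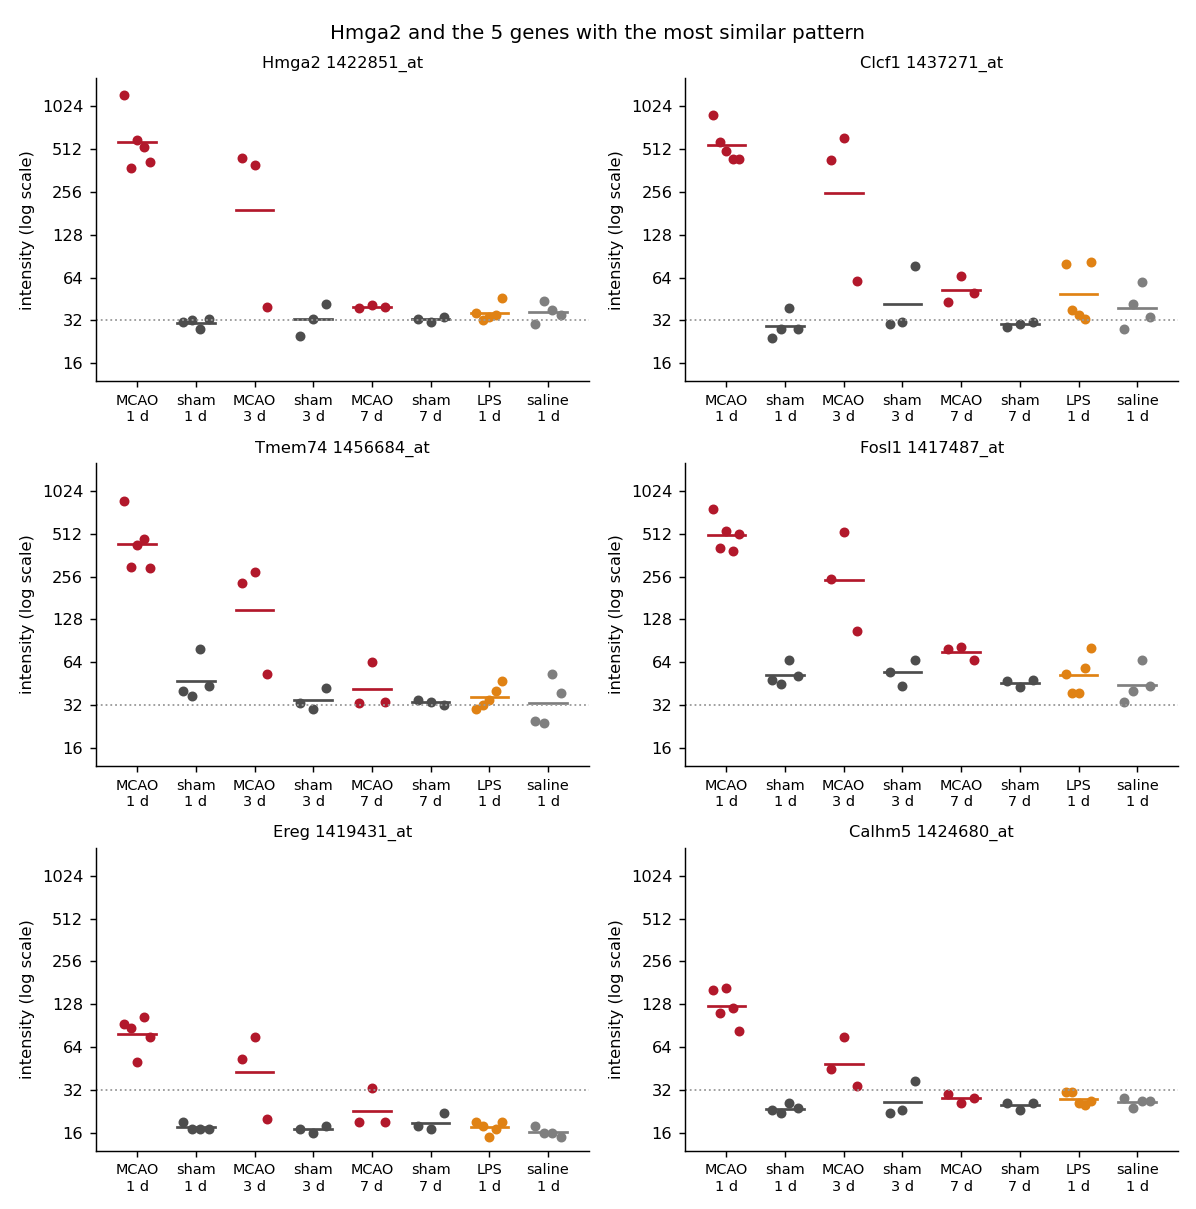
Intensity on each array (log scale) of Hmga2 1422851_at and the 5 genes with the most similar pattern, with 1 point per array, a bar at the group mean of the log2 values and a dotted line at 32. All 6 are high on the 5 MCAO arrays of 1 day and lower on MCAO array 3 of 3 days (the rightmost point of its group) than on arrays 1 and 2. The 5 genes were picked for their likeness to Hmga2 over these arrays.

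Igf2bp3, the messenger RNA-binding protein gene, was not called in any of the 4 comparisons. Its leading probe set 1433731_at read 159, 176, 166, 183 and 176 on MCAO arrays of 1 day, against 178, 204, 153 and 158 on sham arrays, well above the lower limit. The MCAO arrays lay inside the sham range. The log2 difference was 0.00 ± 0.16 (limma adjusted p = 0.999), and its 95% interval ran from 0.795-fold to 1.25-fold. A change as large as that of Hmga2 lies outside this interval, while a change of up to 1.25-fold does not.

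Later days of MCAO and LPS gave no call either. Igf2bp3 1433731_at read 208, 160 and 136 on MCAO arrays of 3 days, against 177, 171 and 160 on sham arrays (log2 difference -0.03 ± 0.19, adjusted p = 0.997), with overlapping groups, and without array 3 of both groups the difference was 0.07 (adjusted p = 0.988). At 7 days it read 188, 158 and 142 on MCAO arrays, against 147, 187 and 166 on sham arrays (-0.04 ± 0.19, adjusted p = 1). After LPS it read 205, 172, 128, 238 and 225, against 183, 156, 187 and 189 after saline (0.09 ± 0.16, adjusted p = 0.845). The LPS arrays spanned the widest range of any group and the saline range lay inside it. Group means of log2 ran from 7.34 to 7.56, and every group overlapped its neighbours.

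The other tested probe sets of Igf2bp3 did not pass the test in any comparison. Of 16 tests against a control (4 probe sets, 4 comparisons) 0 were called by limma and 0 had an unadjusted p under 0.05. Over all probe sets 9.5% were called at 1 day of MCAO, 0.378% at 3 days, 0.0112% at 7 days and 2.28% after LPS. In that order 7170, 3435, 727 and 5419 of 35730 had an unadjusted p under 0.05. Of 16 tests of differences between effects 0 were called, where at most 0.954% of all probe sets were. Their lowest unadjusted p in limma was 0.12. The lowest against a control was 0.0672, for 1422610_s_at at 1 day. That probe set read 88, 110, 70, 77 and 79 on MCAO arrays, against 108, 117, 111 and 92 on sham arrays, so 4 of 5 MCAO arrays lay below all sham arrays. The difference was -0.35 ± 0.18 (limma adjusted p = 0.3), and among the alternatives run it passed the threshold only with array weights (-0.38, adjusted p = 0.0137). With array weights 12059 of 35730 probe sets were called at 1 day of MCAO.

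The probe sets of Igf2bp3 did not vary together as the Hmga2 probe sets of 1 source sequence did. The Hmga2 probe set from another source sequence, 1446196_at, correlated with those at 0.42 to 0.44. Igf2bp3 1433731_at and 1433732_x_at, from 1 source sequence, correlated at 0.82 over the 30 arrays, whereas 1422610_s_at, from another, correlated with 1433731_at at -0.10. Igf2bp3 1422610_s_at and 1422611_s_at, which share a source sequence, correlated at 0.26. Values of 1433732_x_at ran from 55 to 127, of 1422610_s_at from 63 to 159 and of 1422611_s_at from 22 to 55. Probe sets 1450687_at (13 to 21) and 1453957_a_at (14 to 35) did not reach the limit on at least 3 arrays and had no test. Suffixes s and x mark probe sets that can match more than 1 transcript, so 1422610_s_at cannot be read as Igf2bp3 alone, nor 1450780_s_at as Hmga2 alone. The correlation of 1422610_s_at with the leading Hmga2 probe set was -0.57, against 0.02 for 1433731_at.

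**Figure D5:**
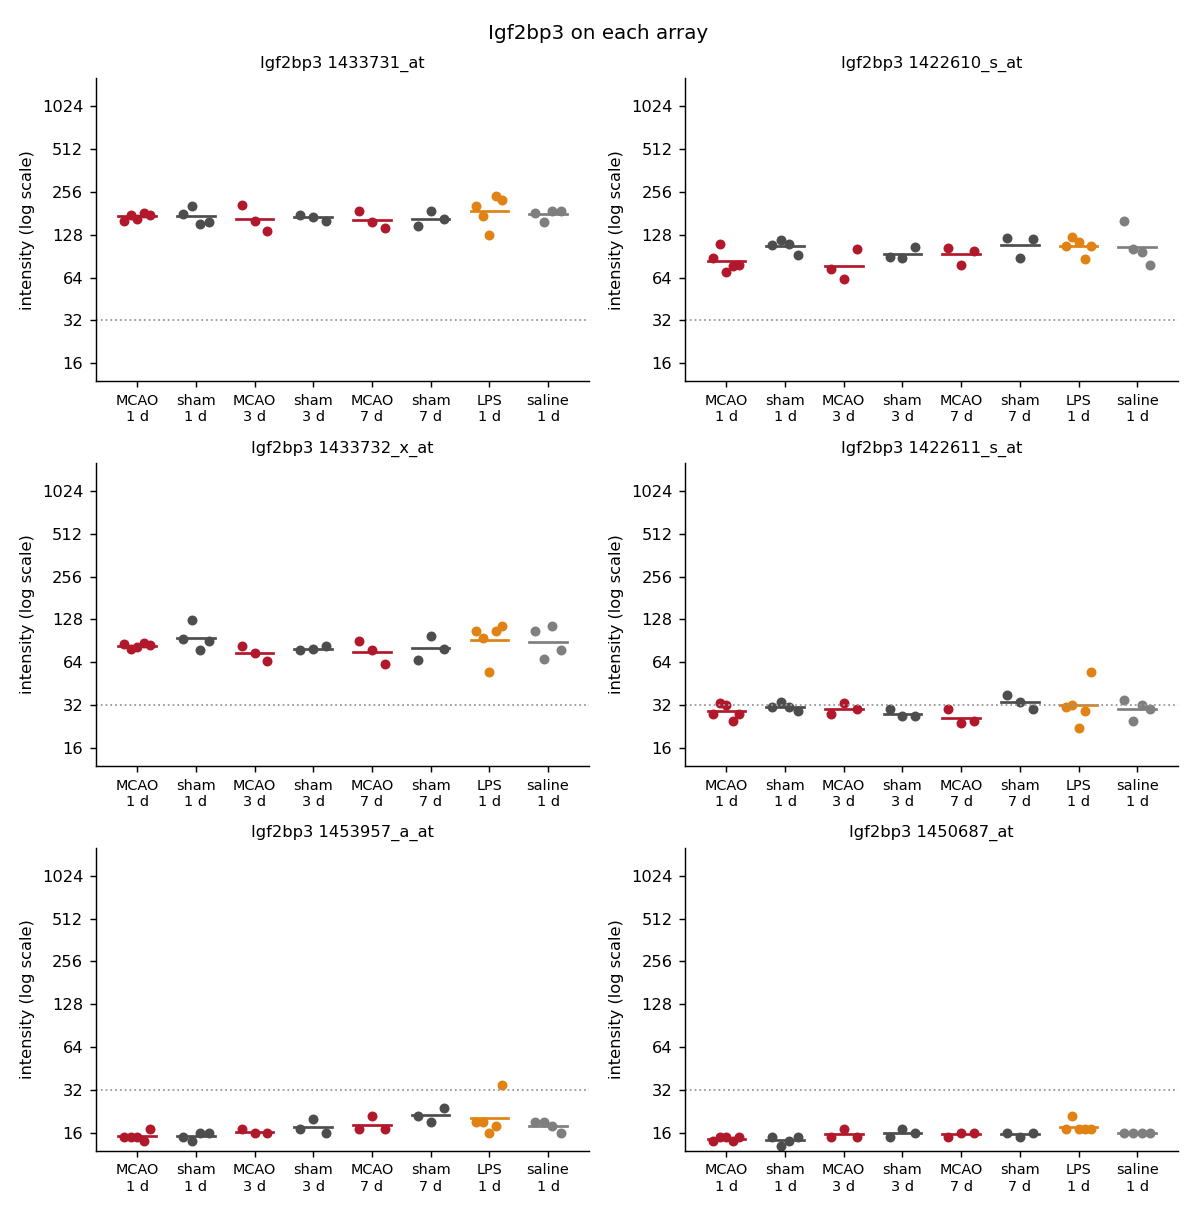
Intensity of the 6 Igf2bp3 probe sets on each array, on the same log scale as the Hmga2 plot, with 1 point per array, a bar at the group mean of the log2 values and a dotted line at 32. MCAO and sham arrays overlap in every probe set at every day, and 1433731_at stays between 128 and 238 on all 30 arrays.

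Genes most like Igf2bp3 1433731_at were Tmem189 (r = 0.75 over 30 arrays), Prkar2a (0.73) and Tspan5 (0.71). Tspan5 encodes a tetraspanin and Prkar2a a regulatory subunit of protein kinase A. The LPS group had the widest spread of Igf2bp3. Tmem189 read 1324, 1499, 349, 2250 and 3477 on LPS arrays, with the lowest on array 3 and the highest on arrays 4 and 5, where Igf2bp3 was also lowest and highest. LPS array 5 had a median intensity of 94 over all probe sets, against 70 to 72 on the other LPS arrays. The remaining gene of the family, Igf2bp1, read 120 to 402 in its leading probe set 1459825_x_at, whose suffix x means it cannot be read as Igf2bp1 alone. Differences of that probe set were 0.06 ± 0.27 at 1 day, 0.35 ± 0.33 at 3 days and -0.12 ± 0.33 at 7 days of MCAO, and 0.06 ± 0.27 after LPS (limma adjusted p = 0.976, 0.898, 1 and 0.947). The other Igf2bp1 probe sets read lower, 1418761_at at 42 to 93, 1449210_at at 20 to 31 and 1455223_at at 13 to 22. Both 1449210_at and 1455223_at were below the lower limit on every array.

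Around these genes, the let-7 pathway was measured through its processing genes. Lin28a and Lin28b, the blockers of let-7 maturation, were under the limit, with mean log2 levels at 1 day of 4.15 and 3.46 on MCAO arrays, against 4.22 and 3.39 on sham arrays. Of 9 tested genes of Lin28 and let-7 processing, 0 were called in any of the 4 comparisons. Among all genes 11.8% were called at 1 day of MCAO, 0.509% at 3 days, 0.0127% at 7 days and 2.78% after LPS. The summed intensity of the list was 5776 to 7013 on MCAO arrays of 1 day, against 4972 to 5510 on sham arrays. Dicer1, the ribonuclease that cuts microRNA precursors, differed at 1 day of MCAO by 0.29 ± 0.21 (adjusted p = 0.524). The list's median at 1 day of MCAO was 0.15, against -0.04 over all genes.

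Of 21 tested let-7 target genes, 4 rose and 1 fell at 1 day of MCAO, where 11.8% of all genes were called, 0 were called at 3 or 7 days, where 0.509% and 0.0127% were, and 1 rose after LPS, where 2.78% were. Cdk6, a cyclin-dependent kinase of the G1 phase, rose 5.72-fold (log2 2.52 ± 0.37, adjusted p = 3.86e-05). Myc, a growth-promoting transcription factor, rose 2.54-fold (adjusted p = 0.00102) and the death receptor gene Fas 3.02-fold (adjusted p = 0.00495). Igdcc3, an immunoglobulin superfamily gene, fell by 0.87 (adjusted p = 0.0114). The list's median was -0.02 at 1 day of MCAO, beside -0.04 for all genes. Without array 3 of both groups 2 of 21, Ccnd1 and Fas, rose at 3 days, where 3.55% of all genes were called. Fas rose after LPS as well (log2 1.72 ± 0.37, adjusted p = 0.00889), a call that is lost with the compared groups alone (adjusted p = 0.206).

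Transcripts reported to be bound by IGF2BPs included 4 of 11 that rose at 1 day of MCAO and 2 of 11 that rose after LPS, with 0 falling in either, where 11.8% and 2.78% of all genes were called. The hyaluronan receptor gene Cd44 rose 12.9-fold after MCAO (log2 3.69 ± 0.49, adjusted p = 1.15e-05) and the growth cone protein gene Gap43 12.7-fold (3.66 ± 0.54, adjusted p = 4.03e-05). Ccnd1, the cyclin D1 gene, rose 4.61-fold (adjusted p = 0.0177), a call lost without sham array 1 (0.0528) or sham array 2 (0.0663), and Myc is also on this list. After LPS Gap43 rose 9.05-fold (adjusted p = 0.000921), which was lost with the description numbers as a block (0.133), numbers that only 1 LPS and 1 saline array share. Actb rose 1.53-fold (adjusted p = 0.0115), which was lost with the compared groups alone (0.551). Without array 3 of both groups 3 of 11 rose at 3 days, which were Cd44, Ccnd1 and Gap43, where 3.55% of all genes were called. Medians were 0.27 after MCAO at 1 day and 0.48 after LPS, against -0.04 and 0.08 over all genes.

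In the insulin-like growth factor list 1 of 16 tested genes rose at 1 day of MCAO, below the 11.8% called among all genes. It was Igfbp3, a secreted binding protein of insulin-like growth factors, at 7.29-fold (log2 2.87 ± 0.67, adjusted p = 0.00527). Igfbp3 was also the 1 gene of this list that rose at 3 days without array 3 of both groups, where 3.55% of all genes were called. The ligand gene Igf2 differed by -0.46 ± 0.66 (adjusted p = 0.86), Igf1 by -0.28 ± 0.61 (0.938) and the receptor gene Igf1r by -0.27 ± 0.26 (0.707). After LPS Igfbp7, another binding protein, rose 3.92-fold (adjusted p = 0.0361), which was lost without saline array 4 (0.123), without any of 5 other single arrays and with the compared groups alone (0.344).

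Genes reported to be regulated by HMGA2 in other settings gave 1 call in 8 tested at 1 day of MCAO, close to the 11.8% called among all genes. The list gives no direction of regulation, so the counts do not say whether a change went the reported way. Ercc1, a subunit of a DNA repair nuclease, rose 1.76-fold (adjusted p = 0.0437), lost in 7 of 9 fits that left out 1 array, with an adjusted p up to 0.138. Cdkn2b, a cyclin-dependent kinase inhibitor, differed by 0.81 ± 0.31 (adjusted p = 0.107), Cdkn2a was under the limit, and Snai1, a transcription factor of epithelial-mesenchymal transition, differed by 0.16 ± 0.15 (adjusted p = 0.668). Among 8 tested genes of other high mobility group proteins, Hmgn5, a nucleosome-binding protein gene, fell by 0.75 (adjusted p = 0.0287), which was lost without any of 5 single arrays (adjusted p up to 0.0989). Hmgb2, a chromatin protein of dividing cells, differed by 0.70 ± 0.32 (adjusted p = 0.21), and Hmgn1 by 0.28 ± 0.20 (0.517). Neither list had a call at 3 days, 7 days or after LPS with all arrays. Without array 3 of both groups, 3 of the 8 tested genes on the HMGA2 list rose at 3 days. Among all genes 3.55% were called there. The 3 were Cdkn2b and the cyclin genes Ccna2 and Ccnb2, and the cyclins are also on the cell cycle list.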

How the data were processed

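Each array measured RNA of sorted astrocytes by hybridisation of biotin-labelled, amplified RNA. The authors deposited linear intensity values, made with RMA, per the submitters' processing notes (version not given in the sources used here), for 45037 probe sets. Of these, 34945 had 1 gene symbol, 932 several and 9160 none. Raw scans were not used here. The number of arrays limits the precision.

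Log2 was taken, and limma 3.58.1 (R 4.3.3) was fitted to the 8 group means over 30 arrays, with 22 residual and 4.48 prior degrees of freedom. The 35730 probe sets at log2 5 or above on at least 3 arrays were tested, two-sided, with Benjamini-Hochberg adjustment over all of them, and called at an adjusted p under 0.05. The fit was checked on simulated arrays. Alternatives were quantile normalization, median centring, no filter or a filter at log2 6, 1 probe set per gene, the compared groups alone, array weights, robust trended variance, replicate blocks and leaving arrays out. The main fit did not pair arrays on any day, and pairing by number entered only the replicate blocks. Same-numbered arrays of 3 days were treated as possible pairs, because their deviations correlated at 0.23, 0.16 and 0.31. At the other days of MCAO at least 1 pair was at or under 0.1 by either numbering. After LPS this held for the title numbers, while the only pair by description numbers correlated at 0.36.

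A gene's leading probe set is the one with the highest mean over the arrays. The genes named were all member probe sets, the 5 genes most correlated with Hmga2 and 3 with Igf2bp3, and up to 4 called genes per list and comparison in order of adjusted p. Lcn2, Vim, Gfap, Serpina3n and the markers named beside Hmga2 were chosen after their values were seen. The members and lists were chosen with earlier results of these data known. The labels say biological replicate but not whether that means separate mice, so p-values measure only the spread between these samples. Promoter and microRNA sequences are RefSeq's (GRCm38.p6); the promoter table held Hmga2, Igf2bp3 and Calhm5 of the 7 genes looked up.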

Additional observations from a re-analysis of the deposited data

Results flagged for a closer look

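Of 39 sets of values (probe sets by groups of 4 or more arrays), 5 held an array far from the others of its group by Dixon's test at the 95% level, which chance gives in about 1 of 20 groups. Igf2bp3 1433731_at was 156 on saline array 2, against 183 to 189 on the other saline arrays. Igf2bp3 1433732_x_at was 55 on LPS array 3, against 95 to 115 on the other LPS arrays. Igf2bp3 1453957_a_at was 35 on LPS array 5, against 16 to 19. At background levels, Igf2bp3 1450687_at was 21 on LPS array 2 and 17 on the others, and Hmga2 1446196_at was 18 on saline array 2 and 17 on the others.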

How the results depend on the processing

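For Hmga2 1422851_at the 1-day MCAO difference stayed between 3.93 and 4.35 in the alternatives run, and the 3-day values depended on array 3. The 3-day difference was 3.46 with array weights, 3.87 without array 3 of both groups (an alternative chosen after seeing the data) and 1.95 to 3.69 when single arrays were left out. The effect at 3 days minus 1 day was -0.65 with array weights, -0.34 without those arrays and -2.26 to -0.52 with single arrays left out, and that at 7 days minus 3 days was -3.21, -3.58 and -3.39 to -1.66. Igf2bp3 1433731_at was called in no alternative.

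Counts of called probe sets moved more. At 1 day of MCAO they were 1991 with 1 probe set per gene, 9821 with the compared groups alone, 12059 with array weights and 2234 to 3146 with single arrays left out. At 3 days they were 214 with quantile normalization, 0 with the groups alone, 4100 with array weights, 983 without array 3 of both groups and 5 to 1304 with single arrays left out (1304 without MCAO array 3). At 7 days they were 8 with quantile normalization, with a filter at log2 6 and with robust trended variance, 2 with median centring and with no filter, 153 with the groups alone, 2137 with array weights and 1 to 7 with single arrays left out. After LPS they were 489 with 1 probe set per gene, 88 with the groups alone, 3299 with array weights and 409 to 1734 with single arrays left out. With 1 probe set per gene fewer probe sets were tested; the cause of the other moves was not tested.

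With the replicate number of the titles as a block, 6 probe sets were called at 3 days and 1 at 7 days. With the block from the descriptions the counts were 7347 at 1 day of MCAO, 1442 at 3 days, 0 at 7 days and 2812 after LPS; only at 3 days were there 3 pairs or more whose deviations all correlated above 0.1. Both blocks left the Igf2bp3 calls as they were. Levels near background limit what can be said of Hmga2 at 7 days and after LPS.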
